A study of Mus musculus with 6 samples.

Results

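The arginine methyltransferase family and Jmjd6 were examined in the adult mouse testis. The 9 mammalian Prmt genes in the list are Prmt1, Prmt2, Prmt3, Carm1, Prmt6 and Prmt8 (type I), Prmt5 and Prmt9 (type II) and Prmt7 (type III), and Jmjd6 was added as the tenth member. They were listed by gene name, with earlier results of these data known, and matched by Ensembl identifier to the gene table, so the members are 10 of 55536 genes. All but Prmt8 had enough counts to be tested, which left 9 members among 20744 tested genes.

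Protein arginine methyltransferases transfer methyl groups from S-adenosylmethionine to arginine side chains of histones and of RNA-binding proteins. Type I enzymes make asymmetric dimethylarginine, type II enzymes make symmetric dimethylarginine, and type III enzymes stop at monomethylarginine. Peptidylarginine deiminases (PAD enzymes) convert arginine to citrulline, a residue that methyltransferases cannot modify, so the 2 enzyme classes can compete for the same arginines. Jmjd6 is an iron- and oxoglutarate-dependent oxygenase that hydroxylates lysines of splicing proteins. It has also been described as an arginine demethylase, an activity that is disputed. In the germ line, symmetric arginine methylation of Piwi proteins is read by Tudor-domain proteins of the piRNA pathway.

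RNA was sequenced from whole testes of 4-month-old male mice of 3 genotypes, with 2 mice and so 2 libraries each. All lines were inbred on the FVB/NJ background. WT mice were FVB/NJ. P2KO mice carried a homozygous, constitutive gene trap in Padi2, in which LacZ and neomycin sequences replace part of exon 1 from the start codon. DKO mice carried the same Padi2 trap together with a CRISPR/Cas9 deletion of 4 nucleotides in exon 1 of Padi4, and came from a single founder crossed back to P2KO, so the DKO group is 1 line. A gene trap or a small deletion in exon 1 need not remove the transcript. Since both alleles are constitutive, loss in testis cells and loss elsewhere in the animal cannot be told apart. The study asked how loss of PAD2 and PAD4 alters gene expression in the testis.

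Library totals lay between 21939393 and 27306679 counts, and the scaling factors (TMM) between 0.984 and 1.02. Groups of 2 libraries allow no exact permutation p below 0.333 for a single gene, so tests came from 1 edgeR quasi-likelihood fit over all tested genes, with p-values adjusted by the Benjamini-Hochberg method. A gene is referred to as called where its adjusted p was under 0.05. Padi4 had 22.5 and 39.8 normalized counts in WT, 9.83 and 10.6 in P2KO, and 3.76 and 4.24 in DKO. The DKO libraries were thus the lowest of the 3 genotypes, whereas Padi2 counts were on average not lower in either knockout and do not check the labels. The markers of spermatogonia, spermatocytes, round and elongating spermatids, Sertoli cells and Leydig cells were detected in these libraries, which the tissue label requires.

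Levels of the members were compared per length, as TPM (transcript reads per length, scaled to a fixed total per library) computed from the counts and the merged exon length of each gene. Prmt7, the monomethylating enzyme, had the highest level at 58.0 ± 2.99 TPM (SD, n = 6 libraries), above 87.0% of tested genes. Jmjd6 followed at 49.4 ± 4.29 TPM, and Carm1, a coactivator that methylates histone H3, stood at 47.2 ± 3.45 TPM. Prmt7 ran from 55.9 to 64.0 TPM and Jmjd6 from 43.8 to 55.6 TPM, so these ranges lay close without overlapping, whereas those of Jmjd6 and Carm1 overlapped.

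A middle tier held Prmt1, the main type I enzyme of most cells, at 21.8 ± 0.938 TPM, and Prmt5, the main type II enzyme, at 19.5 ± 0.569 TPM. The highest library of Prmt1 was at 22.6 TPM and the lowest of Prmt5 at 18.7 TPM, their ranges overlapped, and both lay well below that of Carm1. Prmt6, a nuclear enzyme of histone H3, was lower at 6.35 ± 0.573 TPM. Below it came Prmt9, a type II enzyme known for a splicing factor substrate, at 3.43 ± 0.395 TPM and Prmt2, a coactivator with weak methyltransferase activity, at 3.13 ± 0.435 TPM, and these ranges overlapped too. Prmt3, a cytosolic enzyme that methylates a ribosomal protein, was the lowest of the tested members at 1.79 ± 0.393 TPM.

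Prmt8, a membrane-bound enzyme best known from neurons, was barely detected. It had 1 and 3 counts in WT, 3 and 2 in P2KO, and 3 and 4 in DKO, or 0.0951 ± 0.0363 TPM over the 6 libraries. Counts of 3 or less were treated as the floor, so no fold change is given for Prmt8. The summed level of 4 neuron markers ran from 1.99 to 2.80 CPM (counts scaled to a fixed total per library) in the same libraries, with none of the markers at 0 throughout. Depth limits what can be said of Prmt8: a difference between genotypes was not detectable at these counts.

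The share of Prmt7 in the family was also computed. Prmt7 held 38.0% and 37.4% of the summed TPM of the 9 Prmt genes in WT, 35.1% and 34.5% in P2KO, and 35.2% and 35.6% in DKO. Both WT libraries were above all 4 knockout libraries in this share, which was not tested. The share also moves with the other Prmt genes. The summed TPM of the type I genes was 82.2 and 72.4 in WT, 83.8 and 83.9 in P2KO, and 81.9 and 78.1 in DKO. In the TPM of Prmt7 alone, WT library 2 was not above all 4 knockout libraries. With the longest transcript in place of merged exons as the length, Carm1 moved above Jmjd6 and Prmt2 above Prmt9. Whole testis was sequenced, so fewer cells of a type and less RNA per cell cannot be told apart in any of these values.

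**Figure D1:**
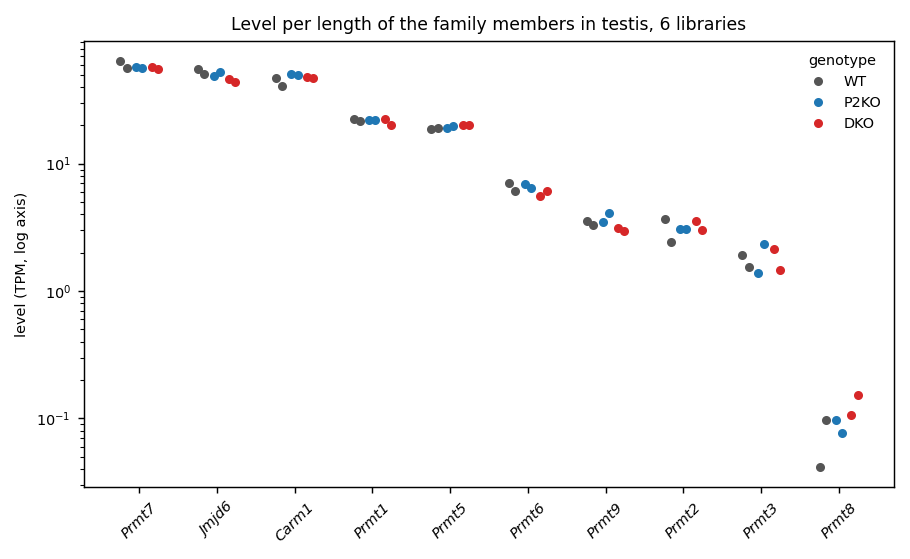
Level of each member in TPM (vertical log axis), ordered from the highest to the lowest mean over 6 libraries; each point is 1 library, colored by genotype. The points of neighbouring genes such as Jmjd6 and Carm1 or Prmt1 and Prmt5 overlap in range, and Prmt8 lies far below the rest at 0.0414 to 0.152 TPM.

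The members are spread over the genome. In GRCm38, Prmt1 lies on the minus strand at chr7:44975989-44986568 and Prmt3 on the plus strand at chr7:49778346-49858265, while Prmt9 (chr8:77549397-77581338) and Prmt7 (chr8:106210936-106252794) both lie on the plus strand of chromosome 8. Prmt2 (chr10:76207222-76237865), Prmt5 (chr14:54507187-54517525) and Prmt8 (chr6:127689011-127769472) are on the minus strand. No member lies on chromosome 4, which carries the Padi genes. Exons of Carm1 (chr9:21546894-21592623, plus strand) share 21.1% of their length with Yipf2 on the opposite strand, and those of Prmt6 (chr3:110246109-110250998, minus strand) share 23.4% with the antisense gene C130013H08Rik. The strand setting of the counting was not stated. Of 402 genes that lie wholly inside exons of an opposite strand gene, 32 had a mean of at least 10 counts, and counting without strand would have discarded such reads as ambiguous. The counts were therefore taken as made by strand.

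Jmjd6, the 1 member that was called in any comparison, starts back to back with another gene of this pathway. Jmjd6 (ENSMUSG00000056962) lies on the minus strand at chr11:116837432-116843449 and has 7 annotated transcripts. Mettl23, which encodes an arginine methyltransferase outside the Prmt family, is transcribed from the plus strand. The RefSeq starts of the pair are separated by 65 bases, chr11:116843450-116843514 in GRCm38.p6, shown here because this stretch lies before the start of both genes. It is written 5′ to 3′ on the minus strand, the strand of Jmjd6, with CG dinucleotides in capitals:
Jmjd6 and Mettl23, stretch between the starts: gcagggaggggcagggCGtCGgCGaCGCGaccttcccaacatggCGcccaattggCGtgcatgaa
The stretch holds 7 CG dinucleotides, and 1 annotated transcript of Mettl23 reads across it. Exons of the genes share 172 bases on opposite strands, which is 3.66% of the exon length of Jmjd6.

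CG-dense starts were found at both ends of the order of levels. The 250 bases before the RefSeq start held 35 CG dinucleotides in Prmt7 and 37 in Prmt8, the members with the highest and the lowest level. As many or more were found in 2.97% and 2.20% of all 32851 RefSeq windows of the same length. The window of Jmjd6 held 28, which 7.61% of all windows reach. Prmt1, Prmt5 and Prmt6 had 13 each, Prmt2 and Prmt9 had 14 each, and Prmt3 had 17, against a median of 6 over all windows. Carm1 was not matched to a window.

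Loss of Padi2 alone was not accompanied by a called change of any member. Between P2KO and WT, 0 of 9 tested members were called by edgeR's quasi-likelihood test, where 0.337% of all tested genes were called (0.198% higher and 0.14% lower), and 1 member had an unadjusted p under 0.05, as did 8.57% of all tested genes. DESeq2 called 0 members as well. The median log2 fold change of the members was 0.01, against 0.0035 over all tested genes. In 1 member both P2KO libraries were above both WT libraries and in 3 both were below, where the groups of 37.5% of all tested genes did not overlap (18.7% higher and 18.8% lower).

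The member with the unadjusted p under 0.05 was Carm1. It had 2278 and 2069 normalized counts in WT against 2451 and 2454 in P2KO, and both DKO libraries lay between these groups at 2339 and 2351. P2KO differed from WT by a log2 fold change of 0.18 (SE 0.0653, 95% interval 0.04 to 0.31), and edgeR's quasi-likelihood test gave an adjusted p of 0.395. The WT libraries differed from each other by more than the P2KO or the DKO libraries did, and without WT library 2 the value fell to 0.11. For DKO against WT the value was 0.11 (interval -0.02 to 0.24, adjusted p = 0.482), and for DKO against P2KO it was -0.06 (interval -0.20 to 0.07, adjusted p = 0.762). The value of DKO against WT was 0.18 without WT library 1 and 0.0413 without WT library 2.

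Prmt1 and Prmt5, the main asymmetric and symmetric enzymes, varied little between libraries. Prmt1 had 773 and 775 normalized counts in WT, 757 and 771 in P2KO, and 764 and 700 in DKO. Prmt5 had 739 and 797 in WT, 763 and 791 in P2KO, and 792 and 816 in DKO. The DKO library with 700 was the lowest for Prmt1, and the groups of Prmt5 overlapped between each knockout and WT. DKO differed from WT by a log2 fold change of -0.08 for Prmt1 (interval -0.25 to 0.09, adjusted p = 0.756) and 0.06 for Prmt5 (interval -0.10 to 0.23, adjusted p = 0.809), with edgeR's quasi-likelihood test. In P2KO against WT the values were -0.02 (interval -0.19 to 0.15) and 0.01 (interval -0.15 to 0.18), and in DKO against P2KO they were -0.06 (interval -0.23 to 0.11) and 0.05 (interval -0.12 to 0.22). Without 1 library, DKO against WT ran from -0.15 (DKO library 1 left out) to -0.0187 (DKO library 2 left out) for Prmt1 and from 0.0076 (WT library 1 left out) to 0.12 (WT library 2 left out) for Prmt5. As percentages, the intervals of DKO against WT reached down to -15.8% for Prmt1 and up to 17.4% for Prmt5.

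Among the less abundant type I enzymes the spread between libraries was wider. Prmt2 had 124 and 86.1 normalized counts in WT, 104 and 105 in P2KO, and 119 and 105 in DKO. Prmt3 had 115 and 96.3 in WT, 83.4 and 142 in P2KO, and 128 and 89.1 in DKO. The WT pair of Prmt2 and the P2KO pair of Prmt3 spanned the values of all other libraries, and none of the 3 comparisons fell under 0.870 in adjusted p (edgeR's quasi-likelihood test). The intervals of the log2 fold change of DKO against WT were -0.27 to 0.49 for Prmt2 and -0.37 to 0.48 for Prmt3, wider than those of the other tested members. In P2KO against WT they were -0.37 to 0.39 for Prmt2 and -0.34 to 0.50 for Prmt3. Prmt6 had 295 and 267 normalized counts in WT, 292 and 276 in P2KO, and 232 and 261 in DKO. Both DKO libraries were the lowest, but the log2 fold change of DKO against WT was -0.19 (SE 0.122, interval -0.44 to 0.06) with an adjusted p of 0.541. Against P2KO it was -0.21 (interval -0.46 to 0.04), with an adjusted p of 0.522. Without DKO library 1 these values of Prmt6 were -0.11 and -0.13, and without WT library 1 the first was -0.12.

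Prmt9, the minor type II enzyme, had 202 and 198 normalized counts in WT, 199 and 236 in P2KO, and 178 and 172 in DKO. Both DKO libraries were the lowest of the 6, and 1 P2KO library was the highest. The share of all tested genes with both DKO libraries lowest, as here and in Prmt6 and Prmt7, was not counted. Against WT alone, both DKO libraries were below both WT libraries in 21.6% of all tested genes. Between DKO and P2KO the log2 fold change was -0.31 (SE 0.138, interval -0.59 to -0.03), and edgeR's quasi-likelihood test gave an unadjusted p of 0.0329, adjusted to 0.358. Against WT the value was -0.19 (interval -0.48 to 0.10, adjusted p = 0.607), and P2KO against WT gave 0.12 (interval -0.16 to 0.39, adjusted p = 0.877). Without the P2KO library of 236 normalized counts, the change between DKO and P2KO was the smallest of those with 1 library left out, at -0.17.

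Prmt7 had 3919 and 3645 normalized counts in WT, 3536 and 3535 in P2KO, and 3491 and 3499 in DKO. In these counts all 4 knockout libraries lay below both WT libraries and within a narrow range. In TPM, Prmt7 was at 60.4 ± 5.10 in WT, 57.2 ± 0.459 in P2KO and 56.5 ± 0.824 in DKO (SD, n = 2). There the lower WT library was not above all knockout libraries. Against WT the log2 fold change was -0.10 in P2KO (SE 0.0608, interval -0.22 to 0.03, adjusted p = 0.712) and -0.11 in DKO (SE 0.0609, interval -0.24 to 0.01, adjusted p = 0.417), with edgeR's quasi-likelihood test. Neither was called, although the groups did not overlap in normalized counts. Without WT library 1 the values of Prmt7 were -0.0473 and -0.0657, and without WT library 2 they were -0.15 and -0.17. Between DKO and P2KO it was -0.02 (interval -0.14 to 0.11).

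**Figure D2:**
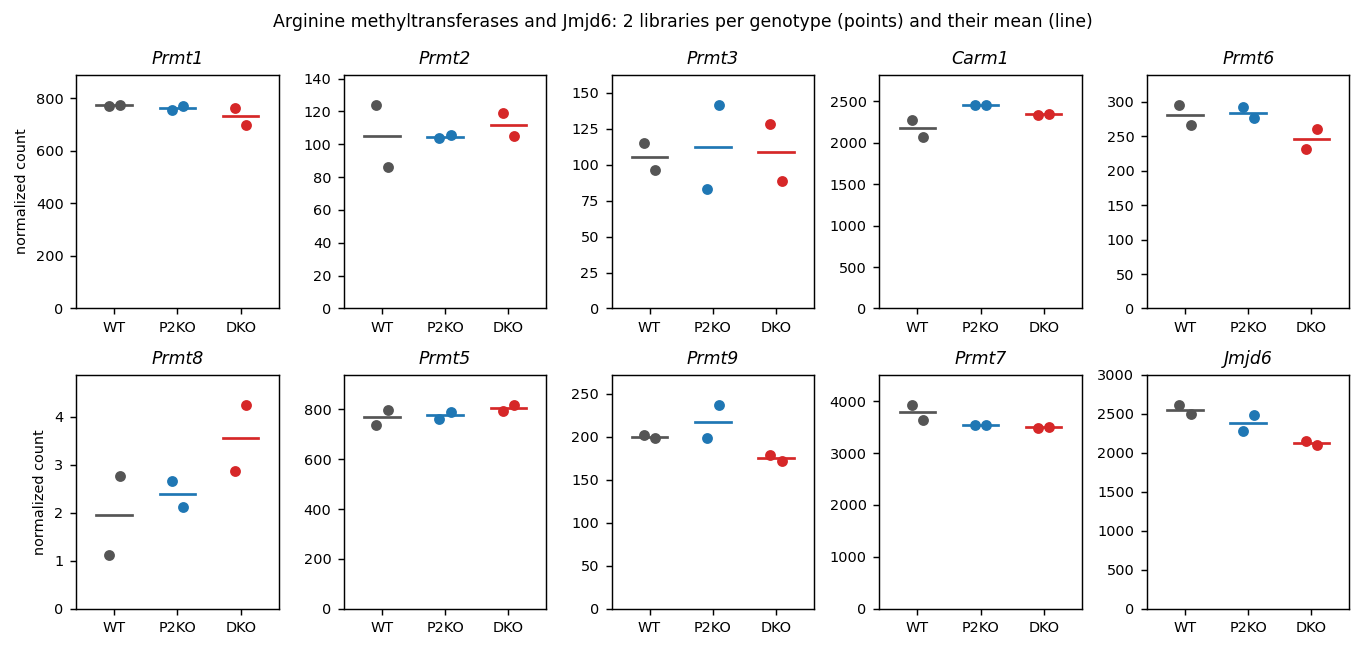
Normalized count (vertical axis from 0) of each member in the libraries of WT, P2KO and DKO; points are single libraries and lines the mean of 2. Jmjd6 steps down from WT to DKO with no overlap of these 2 groups. Prmt6, Prmt9 and Prmt7 have their lowest values in DKO without being called, and the libraries of Prmt2 and Prmt3 spread widely within a genotype.

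In DKO against WT, Jmjd6 fell and no Prmt gene was called. That is 1 of 9 tested members called lower, where 1.16% of all tested genes were called lower, and 0 called higher, where 2.06% were (3.22% in either direction). The median log2 fold change of the members was -0.08, against -0.0048 over all tested genes. In 5 members both DKO libraries were below both WT libraries and in 1 both were above, where 21.6% of all tested genes did not overlap in each direction and 43.2% in either. The comparison shares its WT libraries with that of P2KO.

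Jmjd6 had 2610 and 2493 normalized counts in WT, 2286 and 2491 in P2KO, and 2155 and 2104 in DKO. Both DKO libraries were below the other 4, and 1 P2KO library came within a few counts of the lower WT library. Jmjd6 was lower in DKO than in WT by a log2 fold change of -0.26 (SE 0.0656, interval -0.39 to -0.13), a difference of -16.5% (interval -23.9% to -8.41%), and edgeR's quasi-likelihood test gave an adjusted p of 0.0166. The direction held under every alternative setting tried. The call was lost with DESeq2 on WT and DKO alone (adjusted p = 0.0705), without DKO library 1 (log2 fold change -0.28, adjusted p = 0.0996) and without DKO library 2 (-0.24, adjusted p = 0.224). With 1 library left in an arm, that library is assumed to vary like the other groups.

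P2KO stood between WT and DKO in the level of Jmjd6. Against WT, P2KO had a log2 fold change of -0.10 (SE 0.0651, interval -0.23 to 0.04, adjusted p = 0.738), and that of DKO against P2KO was -0.16 (SE 0.0656, interval -0.30 to -0.03, adjusted p = 0.273), with edgeR's quasi-likelihood test. Neither step was called, and both moved with the P2KO library left out. Without P2KO library 1 they were -0.0339 and -0.23, and without P2KO library 2 they were -0.16 and -0.0939. Per length, Jmjd6 was at 53.1 ± 3.49 TPM in WT, 50.3 ± 2.67 TPM in P2KO and 44.9 ± 1.48 TPM in DKO (SD, n = 2).

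Mettl23, the divergent neighbour of Jmjd6, was not called in any comparison. It is named here after its values had been seen. It had 373 and 363 normalized counts in WT, 379 and 357 in P2KO, and 392 and 358 in DKO, and these groups overlapped. Transcripts of Srsf2 and Mfsd11 match parts of Mettl23 at 100% identity and the pseudogene Gm14127 is near-identical to a part, so the counts of Mettl23 are uncertain. The search did not separate copies elsewhere from exons shared with overlapping genes. The log2 fold change of DKO against WT was 0.03 (SE 0.107, interval -0.19 to 0.25, adjusted p = 0.949 with edgeR's quasi-likelihood test). The interval of Mettl23 overlapped with that of Jmjd6 at its lower end, and the difference between the genes was not tested.

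Some cell type markers moved between the same groups, where 2.06% of all tested genes were called higher in DKO than in WT and 1.16% lower. Of 5 Leydig cell markers, 4 were called higher in DKO than in WT (Cyp17a1, Cyp11a1, Star and Hsd3b6, genes of steroid synthesis), and the summed level of the list was 619 to 634 CPM in WT, 647 to 748 in P2KO and 695 to 865 in DKO. The remaining marker, Insl3, was not called, at 136 ± 18.6 normalized counts in WT and 141 ± 5.10 in DKO (SD, n = 2). The DKO libraries spread widely for Cyp17a1 (11022 ± 2309) and Cyp11a1 (3154 ± 570). Calls of cell type markers were not checked under the alternatives. Of 5 elongating spermatid markers, 2 were called lower (Prm1 and Tnp1, which package sperm chromatin), with summed levels of 13554 to 14385 CPM in WT, 11716 to 12797 in P2KO and 12285 to 12350 in DKO. Both lists had none of their markers at 0. Spermatogonia markers had 0 of 6 called, with 101 to 104 CPM in WT, 103 to 104 in P2KO and 92.8 to 93.6 in DKO. The part of these cell types in the change of Jmjd6 was not tested.

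Spermatocyte markers (6), round spermatid markers (5), Sertoli cell markers (6), peritubular myoid cell markers (3), endothelial cell markers (3), macrophage markers (4) and the tested markers of neurons (3), adipose tissue (3) and epididymis (1) had 0 called between DKO and WT. Round spermatid markers summed to 1180 to 1220 CPM in WT and 1196 to 1221 in DKO, an overlapping range. Endothelial markers summed to 7.61 to 8.24 CPM in WT, 8.41 to 8.72 in P2KO and 9.94 to 10.2 in DKO. Of the epididymis markers, Lcn5 was at 0 in all 6 libraries. In P2KO against WT, Tnp2 of the elongating spermatids was called lower, and Car3, an adipose marker with 10 and 30 counts in WT, was at 0 counts in both P2KO libraries. Between DKO and P2KO, Hsd3b6 and Car3 were called higher and Spaca1, of round spermatids, lower.

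**Figure D3:**
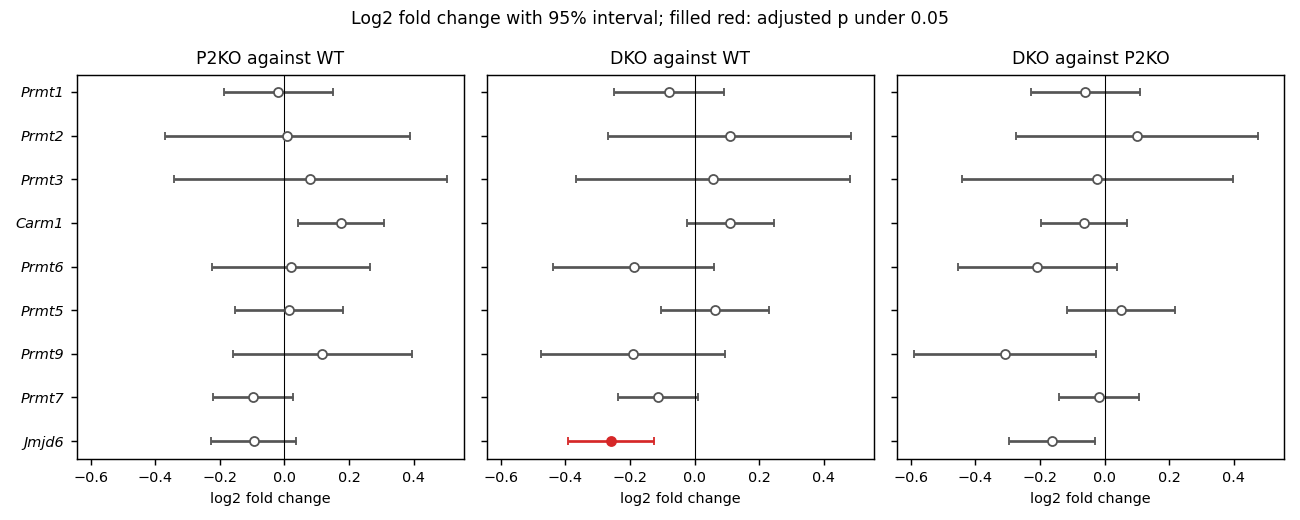
Log2 fold change (horizontal axis) of each tested member in the 3 comparisons, with its 95% interval as a bar; filled red marks an adjusted p under 0.05. Only Jmjd6 in DKO against WT is filled, at -0.26, while the bars of Carm1 in P2KO against WT and of Prmt9 and Jmjd6 in DKO against P2KO leave 0 out without being called.

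Between DKO and P2KO, which differ in the Padi4 deletion and in the line it was made in, 0 of 9 members were called by edgeR's quasi-likelihood test, where 1.21% of all tested genes were called (0.607% higher and 0.598% lower). Both DKO libraries were below both P2KO libraries in 5 members and above them in 1, where 42.8% of all tested genes did not overlap (21.6% lower and 21.1% higher). Unadjusted p-values were under 0.05 for Prmt9 and Jmjd6 and for 11.8% of all tested genes, and DESeq2 called 0 members. On DKO and P2KO alone, DESeq2 gave an adjusted p to only 4055 genes. Prmt1, Prmt2, Prmt3, Prmt5, Prmt6 and Prmt9 were not among these and could not be called there. The median log2 fold change of the members was -0.06, against -0.0028 over all tested genes. The comparison shares its DKO libraries with that of DKO against WT.

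Genes that work with the methyltransferases were read from 6 pathway lists, and the Padi family formed another. In P2KO against WT, 0 genes of any of these lists were called by edgeR's quasi-likelihood test, where 0.337% of all tested genes were, or by DESeq2. Unadjusted p-values were under 0.05 for 3 readers, 2 substrates, 2 genes of the methyl donor cycle, 1 of methylarginine disposal and 2 Padi genes, where 8.57% of all tested genes had one. Partners and related enzymes of the family had 0 of 8 tested genes called in DKO against WT as well, where 3.22% of all tested genes were called, with a median log2 fold change of -0.01 and 1 gene with an unadjusted p under 0.05, against 14.1% of all tested genes. Btg1, a Prmt1 cofactor and the most highly counted gene of that list, had a log2 fold change of -0.01 (SE 0.0619, adjusted p = 0.977).

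Of the genes for proteins that the enzymes methylate, 3 of 15 fell in DKO against WT and 0 rose, where 1.16% of all tested genes were called lower and 2.06% higher. DESeq2 called 1 of them lower, on all 6 libraries and on WT and DKO alone, which was Lsm4. Of the genes with an adjusted p, DESeq2 called 140 of 14806 and 105 of 18744 lower in these fits. The 3 were Taf15, an RNA-binding protein, Fbl, the methyltransferase of box C/D small nucleolar ribonucleoproteins, and Lsm4, a protein of the small nuclear ribonucleoproteins. The median log2 fold change of the list was -0.06, beside -0.0048 over all tested genes. Ddx4, a germ cell RNA helicase and the most highly counted gene of the list, had a log2 fold change of 0.07 (SE 0.0554, adjusted p = 0.642 with edgeR's quasi-likelihood test).

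Taf15 had 1686 and 1140 normalized counts in WT, 1033 and 1439 in P2KO, and 858 and 868 in DKO. WT library 1 and P2KO library 2 were the highest, and the DKO libraries were the lowest. The log2 fold change of DKO against WT was -0.70 (SE 0.118, adjusted p = 1.47e-04), with edgeR's quasi-likelihood test. Taf15 was also lower in DKO than in P2KO, at -0.51 (SE 0.118, adjusted p = 0.0159).

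These calls of Taf15 depended on the tool. With DESeq2 on all 6 libraries the adjusted p was 0.260 in DKO against WT and 0.714 in DKO against P2KO, and on WT and DKO alone it was 0.297. Without WT library 1 the change of Taf15 against WT was -0.41 and remained called (adjusted p = 0.00174). In DKO against P2KO it was -0.25 without P2KO library 2 and was not called (adjusted p = 0.527). Without DKO library 1 or 2, Taf15 was not called in that comparison either (adjusted p = 0.216 and 0.222).

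Fbl had 619 and 462 normalized counts in WT, 457 and 591 in P2KO, and 403 and 393 in DKO, again with WT library 1 and P2KO library 2 on top. Its log2 fold change of -0.43 (SE 0.119, adjusted p = 0.0334) became -0.22 without WT library 1 (adjusted p = 0.412). The call was also lost without DKO library 1 (adjusted p = 0.181) and without DKO library 2 (adjusted p = 0.274). A transcript of Tulp4 and the pseudogene Gm5812 are near-identical to parts of Fbl, so its counts are uncertain. Lsm4 had 1017 and 904 normalized counts in WT, 892 and 812 in P2KO, and 736 and 695 in DKO, and its groups did not overlap. The log2 fold change of Lsm4 was -0.42 (SE 0.0843, adjusted p = 0.00156 with edgeR's quasi-likelihood test), and its call was lost only without DKO library 2 (-0.38, adjusted p = 0.0803) among the alternatives tried.

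The Tudor-domain readers of methylarginine had 2 of 15 genes called higher in DKO than in WT and 0 lower, where 2.06% of all tested genes were called higher and 1.16% lower. The median log2 fold change of this list was 0.12, beside -0.0048 over all tested genes. In P2KO against WT, which shares the WT libraries, the list median was 0.08, beside 0.0035 over all tested genes. In each of these comparisons 13 of the 15 readers had a positive value. Tdrd1, which binds methylated Piwi proteins, had 4149 and 3731 normalized counts in WT, 4564 and 4429 in P2KO, and 4719 and 4699 in DKO. Tdrd6, a chromatoid body protein of spermatids, had 20953 and 18348 in WT, 19104 and 20887 in P2KO, and 23126 and 23195 in DKO. Both genes were highest in the DKO libraries, and P2KO overlapped with WT for Tdrd6 but not for Tdrd1. Tdrd1 rose by a log2 fold change of 0.26 (SE 0.0614, adjusted p = 0.0101) and Tdrd6 by 0.24 (SE 0.0588, adjusted p = 0.0143), with edgeR's quasi-likelihood test.

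Neither call held in every leave-one-out fit. Without WT library 2 the values were 0.18 for Tdrd1 (adjusted p = 0.193) and 0.14 for Tdrd6 (adjusted p = 0.263). Without DKO library 1 the adjusted p was 0.127 for Tdrd1 and 0.135 for Tdrd6, and without DKO library 2 it was 0.123 and 0.153. The readers had 0 genes called in DKO against P2KO, where 1.21% of all tested genes were called. At an unadjusted p under 0.05 there were 2 readers, beside 11.8% of all tested genes. DESeq2 on these genotypes alone called 1 reader higher. In that fit only 4055 genes had an adjusted p, and of these 190 were called higher and 71 lower.

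In the methyl donor cycle, which regenerates S-adenosylmethionine, 1 of 10 tested genes rose in DKO against WT, where 2.06% of all tested genes were called higher. Bhmt, which remethylates homocysteine from betaine, had 1414 and 1429 normalized counts in WT, 1572 and 1432 in P2KO, and 2532 and 1815 in DKO. Both DKO libraries were above the other 4, and they differed widely from each other. Bhmt rose by a log2 fold change of 0.61 against WT (SE 0.0906, adjusted p = 2.07e-05) and by 0.53 against P2KO (SE 0.0900, adjusted p = 3.61e-04), with edgeR's quasi-likelihood test.

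DKO library 1 carried much of this rise. Without it, the change of Bhmt was 0.35 against WT (adjusted p = 0.0381) and 0.27 against P2KO (adjusted p = 0.246). Without DKO library 2 the changes were 0.83 (adjusted p = 1.15e-07) and 0.75 (adjusted p = 1.25e-06). With DESeq2 on all 6 libraries the adjusted p was 0.0701 and 0.271, and on the genotypes compared 0.285 and 0.189. Bhmt has near-identical copies, Gm5096 and Bhmt-ps1, with a mean of 5.83 and 1 counts. DKO library 1 also had the highest summed level of the Leydig cell markers, 865 CPM, and the part of Leydig cells in the rise of Bhmt was not tested. Ahcyl2, the most highly counted gene of the cycle, had a log2 fold change of -0.08 against WT (SE 0.0692, adjusted p = 0.661).

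**Figure D4:**
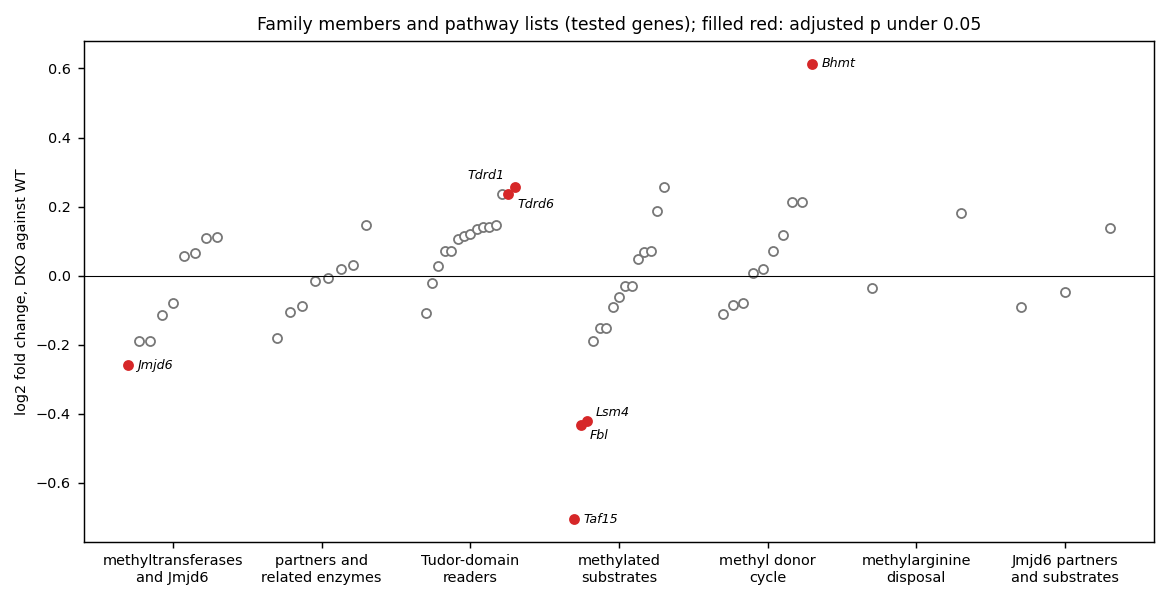
Log2 fold change of DKO against WT (vertical axis) of the tested genes of the family and of the 6 pathway lists, 1 point per gene, sorted within a list; filled red marks an adjusted p under 0.05. The called substrates (Taf15, Fbl and Lsm4) lie between -0.70 and -0.42, the called readers at 0.24 and 0.26, and Bhmt at 0.61.

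Disposal of free methylarginine and the partners of Jmjd6 were not called in any comparison. Ddah1, which hydrolyses asymmetric dimethylarginine, had a log2 fold change of 0.18 in DKO against WT (SE 0.113, adjusted p = 0.512), and 0 of 2 tested genes of its list were called, also at an unadjusted p under 0.05, where 3.22% of all tested genes were called and 14.1% had such a p. Of the 3 partners and substrates of Jmjd6, Luc7l2, a splicing protein and the most highly counted of them, was at -0.05 (SE 0.0636, adjusted p = 0.824 with edgeR's quasi-likelihood test). The median log2 fold change of DKO against WT was 0.07 in the disposal list and -0.05 in the Jmjd6 list.

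Of the 5 Padi genes, Padi3 and Padi4 were called lower in DKO than in WT, where 1.16% of all tested genes were, and the list median was -0.19. Padi4 was at -2.94 (SE 0.513, adjusted p = 2.78e-04) and Padi3 at -0.54 (SE 0.149, adjusted p = 0.0351), with edgeR's quasi-likelihood test. On average Padi4 had 31.2 normalized counts in WT, 10.2 in P2KO and 4.04 in DKO, so P2KO, where Padi4 is not edited, was lower as well. In DKO against P2KO, 0 of 5 Padi genes were called, where 1.21% of all tested genes were. Padi3 had 208 and 187 normalized counts in WT, 138 and 127 in P2KO, and 129 and 143 in DKO, so both knockouts were below WT. The call of Padi3 was lost without WT library 1 (-0.46, adjusted p = 0.159), WT library 2 (-0.62, adjusted p = 0.0540), DKO library 1 (-0.47, adjusted p = 0.286) or DKO library 2 (-0.61, adjusted p = 0.128). DESeq2 did not call Padi3 either, on all 6 libraries (adjusted p = 0.226) or on WT and DKO alone (adjusted p = 0.444). For Padi4 it gave no adjusted p on all 6 libraries and 0.0229 on WT and DKO alone. Padi6, the oocyte member and here the most highly counted Padi gene, had a log2 fold change of -0.19 (SE 0.133, adjusted p = 0.591).

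**Figure D5:**
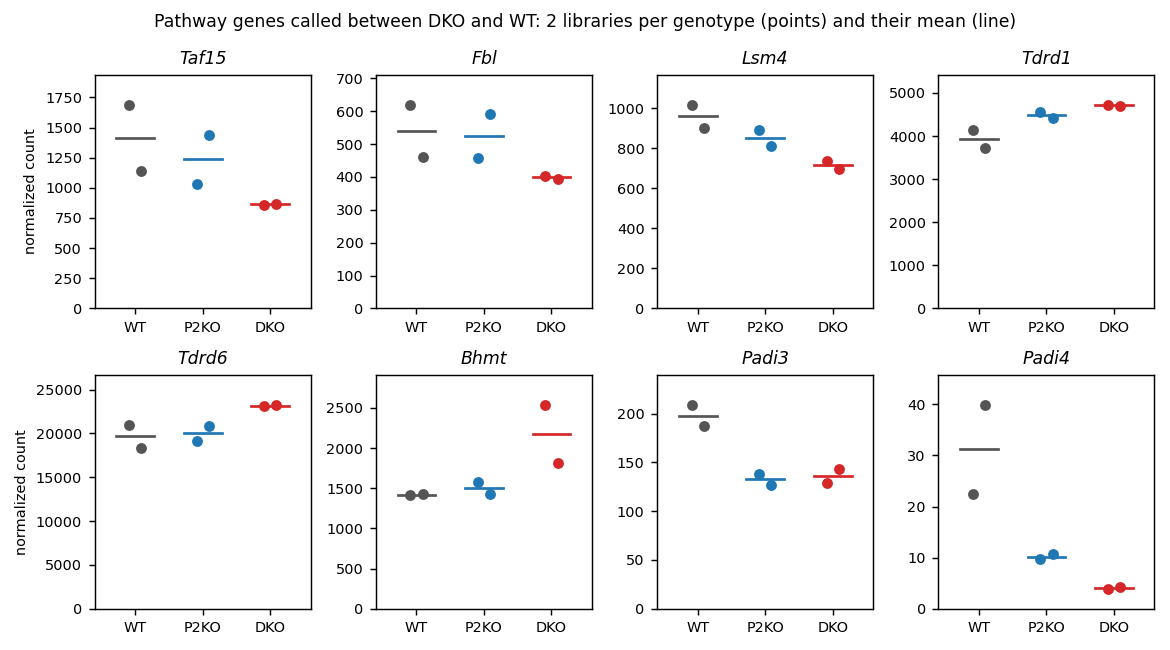
Normalized count (vertical axis from 0) of the 8 reported pathway and Padi genes called between DKO and WT, in the libraries of each genotype; points are single libraries and lines the mean of 2. Taf15 and Fbl are lowest in DKO with a wide spread within WT and P2KO, Tdrd1 and Tdrd6 are highest in DKO, and 1 DKO library of Bhmt stands above the other.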

How the data were processed

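The authors trimmed the reads with Trim Galore and cutadapt, used STAR for alignment to GRCm38, and deposited raw counts per gene in 1 table, with no normalization. Versions and the strand setting were not given in the sources used here. The members and lists were chosen with earlier results of these data known.

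Genotypes were compared with edgeR 4.0.16 in R 4.3.3 (filterByExpr with a minimum count of 10, TMM, glmQLFit and glmQLFTest, prior count 0.125). All 6 libraries entered 1 fit with genotype as the term, which left 3 residual degrees of freedom, and the common biological coefficient of variation was 0.0508. P-values were adjusted by Benjamini-Hochberg over 20744 genes. The SE is the absolute log2 fold change divided by the square root of F. A normalized count is a count scaled to the geometric mean of the TMM-scaled library sizes. TPM used merged exon lengths of GENCODE release 21 (Ensembl 96), and promoter windows came from RefSeq. Near-identical copies were found by BLAST 2.17.0 (95% identity over 150 nucleotides and 50% of the shorter transcript). Precision is limited by 2 libraries per genotype and by depth, 21939393 to 27306679 counts. The p-values and SEs rest on a spread between single mice that the fit estimates largely from other genes. The median of the total degrees of freedom was 34.2, so a gene whose own libraries differ widely can still have a small SE.

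Named genes were all members, list genes called in a comparison, the most highly counted gene of each list, and the targeted genes. Mettl23, Lcn5, Insl3 and near-identical or overlapping genes were named after their values were seen. An item of the substrate list is not reported here, and the counts of that list leave it out. Alternatives were RLE or upper-quartile scaling, no filter on low counts or a minimum mean of 50, a replicate block, a prior count of 2, length correction, length correction with the block, genes off chromosome 4, DESeq2 1.42.0 or edgeR on the genotypes compared, DESeq2 on all libraries, leaving out each library, and a GC correction chosen after seeing the data.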

Additional observations from a re-analysis of the deposited data

How the results depend on the processing

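No member changed direction while called. Over 27 member results and 507 values under the alternatives, 486 kept direction and call, 3 (all Jmjd6 in DKO against WT) lost the call, and 18 changed sign. Where DESeq2 gave no adjusted p, the value was left out. Jmjd6 remained called in DKO against WT with the replicate block (adjusted p = 0.0325), and 1 member was called lower, or 0 with DESeq2 on the 2 genotypes and from 0 to 1 without 1 library. The replicate numbers do not pair the samples: replicate differences correlated at -0.0572 (WT and P2KO), 0.0574 (WT and DKO) and -0.0502 (P2KO and DKO). The block moved the genes called higher in P2KO against WT from 41 to 24, and with it Fbl (adjusted p = 0.0901) and Padi3 (0.0588) were not called in DKO against WT, nor Taf15 (0.0927) in DKO against P2KO. Causes were not tested. For P2KO against WT, genes called higher were 80 without a filter, 13 off chromosome 4, 22 with DESeq2 on all libraries, 26 and 22 with edgeR and DESeq2 on the 2 genotypes, and 28 to 221 without 1 library, the highest without WT library 1. Genes called lower (29) were 60, 11, 19 and, with DESeq2 on the 2 genotypes, 18, and 25 to 90 without 1 library, 90 without WT library 1 and 44 without WT library 2. For DKO against WT, genes called higher (428) were 257 with length correction and block, 263 and 191 with DESeq2 on all and on the 2 genotypes, and 129 to 762 without 1 library: 762 without WT 1, 217 without WT 2, 230 without DKO 1 and 129 without DKO 2. Genes called lower (240) were 140 and 105 with DESeq2 and 110 to 303 without 1 library, 110 without DKO 1 and 121 without DKO 2. For DKO against P2KO, genes called higher (126) were 321 and 190 with edgeR and DESeq2 on the 2 genotypes, and 51 to 348 without 1 library: 315 and 348 without WT 1 and 2, 61 and 51 without DKO 1 and 2, and 65 without P2KO 1. Genes called lower (124) were 72 with DESeq2 on all libraries, 258 and 71 with edgeR and DESeq2 on the 2 genotypes, and 54 to 274 without 1 library: 262 and 274 without WT 1 and 2, 54 and 57 without DKO 1 and 2, and 56 without P2KO 2. Sign changes were small or came from single libraries. In P2KO against WT, upper-quartile scaling gave -0.0048 for Prmt2 and -5.26e-04 for Prmt5, and DESeq2 on the 2 genotypes -9.87e-04 for Prmt2. Without 1 library the log2 fold change of P2KO against WT ran from -0.25 to 0.28 for Prmt2, -0.34 to 0.43 for Prmt3, -0.0558 to 0.0881 for Prmt6, -0.0415 to 0.0704 for Prmt5 and -0.0110 to 0.24 for Prmt9. For DKO against WT it ran from -0.15 to 0.38 for Prmt2 and -0.24 to 0.29 for Prmt3, and for DKO against P2KO from -0.13 to 0.0017 for Prmt1 and -0.37 to 0.40 for Prmt3. With the longest transcript as length, levels were 85.4 TPM for Prmt7, 53.3 for Carm1, 42.7 for Jmjd6, 29.0 for Prmt1, 23.9 for Prmt5, 7.27 for Prmt6, 4.20 for Prmt2, 4.18 for Prmt9 and 3.05 for Prmt3.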
